A study of Mus musculus with 56 samples.

Results

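Glycolysis converts glucose to pyruvate and lactate, and the 10 genes described here encode enzymes along that route: Hk1, Hk2, Gpi1, Pfkl, Pfkp, Pfkfb3, Aldoa, Pgk1, Eno1 and Ldha. They were taken by symbol from the 25939 genes of the expression table of mouse visceral adipose tissue (VAT), where 11 rows carry the 10 symbols because Aldoa has a second Ensembl identifier, ENSMUSG00000114515. The libraries came from female C57BL/6J mice aged 9 weeks that had been kept in a 12 h light and 12 h dark cycle. For the last 7 days they were fed in the daytime (DRF, daytime-restricted feeding, also called inverted feeding) or in the nighttime (NRF, nighttime-restricted feeding, the reference). VAT was collected from 4 mice per regimen at each of 7 zeitgeber times (ZT, hours after lights on), ZT0, ZT4, ZT8, ZT12, ZT16, ZT20 and ZT24, which gave 28 libraries per regimen and 56 in all. All mice carried the same genotype, both groups were food restricted, and no group was fed at will in these libraries.

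In fat cells, glucose is phosphorylated by hexokinase, committed to glycolysis by phosphofructokinase, split by aldolase and carried to pyruvate through phosphoglycerate kinase and enolase. Pyruvate then feeds lactate through lactate dehydrogenase or citrate and fatty acid synthesis through the mitochondria, and glycerol 3-phosphate for triglyceride comes from the same route. Insulin is released on feeding and raises glucose entry into adipocytes, and Hk2, the insulin-responsive hexokinase, is the isoform best known for its regulation in fat.

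Depth was even: 31180026 to 41299376 reads per library were recovered on genes, and 21912 to 24109 genes were detected. All 5 adipocyte markers were abundant in every library, with summed levels of 15301 to 27119 TPM (a share of all transcripts that is corrected for gene length) under NRF and 11376 to 28887 under DRF. Each of the 2 pancreas markers found stood at or under 0.248 TPM in every library. An NRF library held 2077 TPM of 3 liver markers, where the NRF median was 33.4, and it was not left out alone in any fit. A pair of DRF libraries stood apart in more than 1 list. The DRF ZT0 replicate 4 library held 6087 TPM of a list of 5 uterine epithelium genes, against 17.0 to 25.9 in the other mice of its group, and DRF ZT8 replicate 1 held 935.3 TPM, against 37.8 to 47.9. They also held more of the neutrophil markers, at 65.4 TPM against 12.6 to 23.6 in DRF ZT0 replicate 4 and 148.5 against 11.5 to 12.3 in DRF ZT8 replicate 1, and of the mesothelium markers, at 743.2 against 196.0 to 278.4 and 485.97 against 415.6 to 429.9. Their adipocyte sums were 15231 and 11376 TPM, against 24802 to 25341 and 19072 to 22057. Where a call of 1 of the 10 genes changed without them, it is given both ways. In bulk tissue, fewer cells of a type and less RNA per cell cannot be told apart.

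Levels of the 10 genes spanned a wide range. On the length-corrected scale, averaged over the 56 libraries, Aldoa was the most abundant at 2670 TPM, followed by Ldha at 1311, Eno1 at 555.0, Pgk1 at 312.8, Pfkfb3 at 228.3, Gpi1 at 148.3, Hk2 at 120.2, Pfkl at 119.2, Pfkp at 25.8 and Hk1 at 12.5. Neighbours in that order such as Hk2 and Pfkl differed by far less than their spread across mice, which was 24.6 to 287.9 TPM for Hk2 and 47.2 to 210.4 for Pfkl under NRF. Hk2 made up 82.3% ± 11.1 (SD, n = 28) of the summed TPM of Hk1, Hk2 and Hk3 under NRF and 85.3% ± 5.55 under DRF. Among the 4 bifunctional 6-phosphofructo-2-kinases, Pfkfb3 made up 77.2% ± 7.14 and 72.9% ± 9.93. Among the phosphofructokinases, Pfkl was the main transcript, at 65.2% ± 7.51 and 66.3% ± 3.79. Ldha was 90.8% ± 3.01 and 90.1% ± 3.23 of Ldha plus Ldhb.

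**Figure D1:**
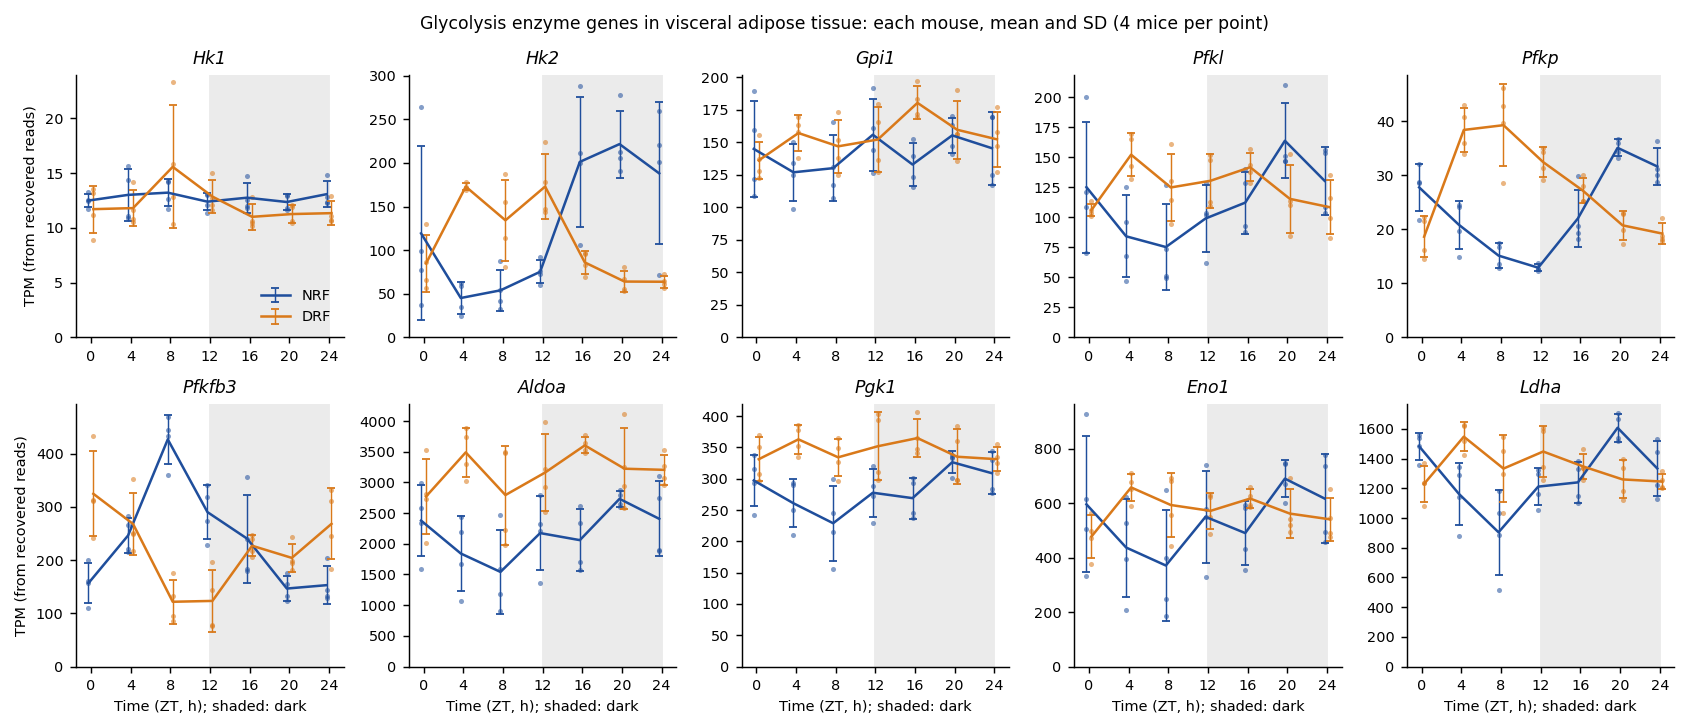
Level of each of the 10 genes (TPM from recovered reads, y axis from 0) against zeitgeber time (h), with a point for each mouse, lines through the means of 4 mice and SD bars, NRF in blue and DRF in orange. Hk2 rose in the dark under NRF and in the light under DRF, Pfkfb3 had its highest mean at ZT8 under NRF and at ZT0 under DRF, and the group means of Hk1 under NRF stayed between 12.4 and 13.2 TPM.

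The promoters of 4 genes are shown. Those of Hk2, Pfkp and Pfkfb3 were taken because these genes were rhythmic under both regimens. That of Ldha was picked for its matches, as the start with the most CACGTG. Each sequence is the 250 bases before the annotated start (RefSeq, GRCm38.p6), 5′ to 3′ on the strand of the gene, and capitals mark matches on either strand to CACGTG (the canonical E-box), ACGTG or GCGTG. Every CACGTG also counts as an ACGTG match on each strand. Of the 10 genes, all had an entry in the promoter set, with 17 starts in total.
Hk2, chr6:82774455-82774704, minus strand: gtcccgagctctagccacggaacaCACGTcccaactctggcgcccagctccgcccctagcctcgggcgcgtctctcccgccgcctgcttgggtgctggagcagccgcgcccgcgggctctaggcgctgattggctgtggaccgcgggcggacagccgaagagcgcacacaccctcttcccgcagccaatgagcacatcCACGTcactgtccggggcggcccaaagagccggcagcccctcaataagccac
Pfkp, chr13:6648772-6649021, minus strand: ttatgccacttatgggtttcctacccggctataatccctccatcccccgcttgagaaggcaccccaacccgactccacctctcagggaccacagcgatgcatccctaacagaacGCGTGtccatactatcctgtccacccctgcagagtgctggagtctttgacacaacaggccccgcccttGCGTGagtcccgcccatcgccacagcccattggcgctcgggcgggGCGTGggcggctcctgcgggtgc
Pfkfb3, chr2:11553930-11554179, minus strand: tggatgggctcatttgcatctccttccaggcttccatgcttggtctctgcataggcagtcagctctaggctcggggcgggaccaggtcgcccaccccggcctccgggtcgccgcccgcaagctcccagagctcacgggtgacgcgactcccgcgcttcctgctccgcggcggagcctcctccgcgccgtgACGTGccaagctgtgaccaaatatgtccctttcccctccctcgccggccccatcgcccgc
Ldha, chr7:46845554-46845803, plus strand: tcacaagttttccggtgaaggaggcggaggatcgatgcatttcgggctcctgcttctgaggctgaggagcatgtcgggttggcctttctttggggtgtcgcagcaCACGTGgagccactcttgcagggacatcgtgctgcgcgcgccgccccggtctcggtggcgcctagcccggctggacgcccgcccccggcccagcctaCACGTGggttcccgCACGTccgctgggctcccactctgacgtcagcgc
This Ldha window held 2 CACGTG matches, at 145 and 48 bases before the start, and 5 ACGTG matches, whereas the Hk2 window held 2 ACGTG matches and the Pfkp window 3 GCGTG matches. At a second Pfkfb3 start a CACGTG lies 53 bases upstream, and the Pgk1 window held 2 ACGTG matches. The window of a second Ldha start, at chr7:46846832-46847081, held 1 GCGTG match and neither CACGTG nor ACGTG. The Gpi1 window held none of the 3 motifs. Among 32851 promoter windows of the same length, 6.02% held CACGTG, 16.6% ACGTG and 28.2% GCGTG. A match here is a string of letters in a window and not a measured binding site.

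The first comparison asked how the genes differ between the dark and light phases under each regimen. The dark phase is the feeding phase under NRF and the fasting phase under DRF. ZT16 and ZT20 were set against ZT4 and ZT8, 8 mice against 8, on the log2(CPM + 1) scale in limma with Benjamini-Hochberg adjustment over 15737 genes, and an adjusted p under 0.05 counted as called. Under NRF, 8 of the 10 genes were called, 7 higher in the dark and Pfkfb3 lower, against 37% of all genes called, 19.6% higher and 17.4% lower. Under DRF, 3 were called, all of them lower in the dark, against 30.1% of all genes called and 16.1% lower. The difference between the regimens was called for 6 of 10, 5 lower and Pfkfb3 higher, against 38.5% of all genes, 20.5% lower and 18% higher. That count fell to 3 (Hk2, Pfkp and Pfkfb3) without the mice of replicate number 4, against 30.9% of all genes, and was 7 without the 2 libraries that stand apart, against 43.6% of all genes. The median dark minus light difference of the 10 genes was 0.56 under NRF and -0.08 under DRF, while over all genes tested it was -0.01 and -0.02.

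Markers of other cells also moved between the phases. Under NRF the called ones were Ucp1 (-1.76) of 3 brown fat markers and Cd163 (0.54) of 4 macrophage markers. Also called were S100a9 (-0.27) of 3 tested neutrophil markers, Cd79a (-0.60) of 3 tested lymphocyte markers and Star (-0.27) of 2 tested ovary markers. The remaining neutrophil, lymphocyte and ovary markers had too few reads to be tested. Under DRF they were Cidea (0.97) and Dio2 (-2.05) of brown fat, Cd163 (0.85) and Star (-0.92). Of the 5 adipocyte markers, Lep, the leptin gene, was 1.98 higher in the dark under NRF and -1.41 under DRF, and Plin1 was -0.38 under NRF. The summed brown fat markers ran from 15.1 to 165.6 TPM in the light and from 26.3 to 74.5 in the dark under NRF, and from 28.02 to 75.96 and 34.1 to 180.4 under DRF. Macrophage sums ran from 200.7 to 357.0 and 241.4 to 325.9 under NRF and from 158.4 to 288.1 and 203.8 to 273.6 under DRF. No marker of skeletal muscle, red cells, mesothelium, uterine epithelium or liver was called in either contrast. The part of these cells in the phase differences was not tested.

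**Figure D2:**
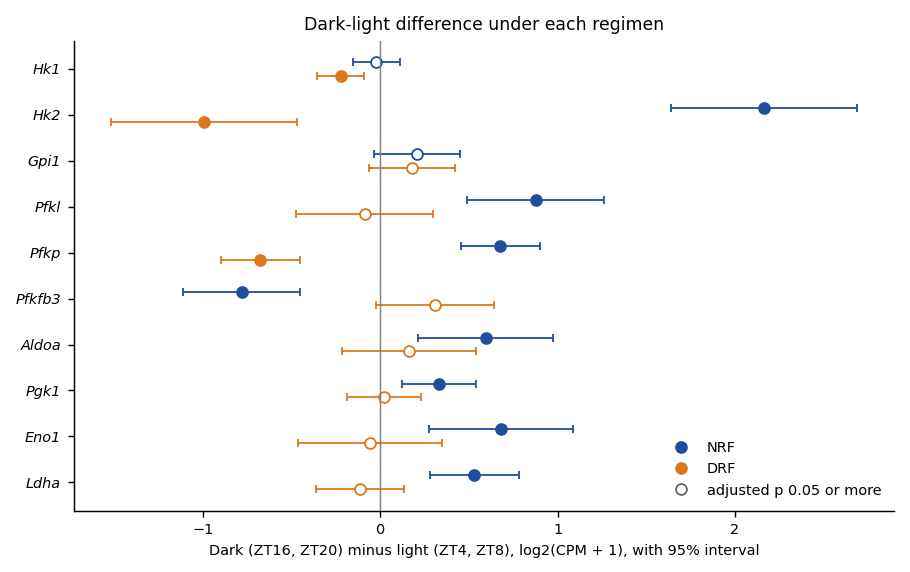
Dark minus light difference of each gene on the log2(CPM + 1) scale (x axis) with 95% intervals, NRF in blue and DRF in orange, open points for an adjusted p of 0.05 or more. Hk2 lies at 2.16 under NRF and -0.996 under DRF, and Pfkfb3 is the only gene of the 10 with a called fall in the dark under NRF.

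Hk2 showed the widest swing. Hk2 (ENSMUSG00000000628, chr6:82725025-82774454 in GRCm38) phosphorylates glucose to glucose 6-phosphate. Under NRF its level in the 8 light-phase mice ran from 24.6 to 87.0 TPM with a median of 47.9, and in the 8 dark-phase mice from 105.9 to 287.9 with a median of 208.1. Every dark-phase NRF mouse was above every light-phase NRF mouse. Under DRF the light-phase mice ran from 80.8 to 187.0 TPM with a median of 170.4, and the dark-phase mice from 53.2 to 96.6 with a median of 74.5. These ranges overlapped because DRF ZT8 replicate 2, at 80.8 TPM, lay below the ZT16 mice at 82.4, 96.0 and 96.6 TPM. The difference was 2.16 under NRF (SE 0.27, adjusted p = 1.34e-08 in limma), a 4.48-fold higher level in the dark, and -0.996 under DRF (SE 0.27, adjusted p = 0.00349). The DRF call was lost without the mice of replicate number 4 (-0.85, adjusted p = 0.0690). The regimens differed by -3.16 (95% interval -3.90 to -2.42, adjusted p = 2.97e-09).

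At single times, Hk2 stood at 61.9, 59.4, 24.6 and 34.5 TPM in the NRF ZT4 mice and at 169.1, 172.7, 178.0 and 171.7 in the DRF ZT4 mice, so the groups were far apart and the DRF mice nearly equal. At ZT20 the NRF mice stood at 213.1, 205.3, 277.5 and 190.5 TPM and the DRF mice at 53.2, 66.6, 80.4 and 55.7. The most variable Hk2 groups were at the change from dark to light under NRF: 36.8, 98.6, 263.9 and 77.6 TPM at ZT0 and 71.6, 220.0, 201.1 and 259.3 at ZT24. Under NRF the highest Hk2 mean was that of ZT20, at 221.6 ± 38.4 TPM (SD, n = 4), 4.91 times the ZT4 mean of 45.1 ± 18.4. Under DRF the highest means were tied, at 172.9 ± 3.76 at ZT4 and 172.9 ± 37.3 at ZT12, and so were the lowest, at 63.98 ± 12.4 at ZT20 and 63.8 ± 6.85 at ZT24.

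Hk1 (ENSMUSG00000037012, chr10:62268855-62379908) encodes the hexokinase that most tissues express constantly. It was nearly level under NRF, from 10.9 to 15.7 TPM over all 28 mice, with a dark minus light difference of -0.02 (95% interval -0.16 to 0.11, adjusted p = 0.825 in limma). Under DRF the dark-phase mice ran from 10.2 to 12.8 TPM and the light-phase mice from 10.3 to 23.3, and the difference was -0.23 (adjusted p = 0.00908). The value of 23.3 TPM came from DRF ZT8 replicate 1, the library that stands apart with uterine epithelium and neutrophil genes, where the other mice of the group had 10.3 to 15.9. Without the 2 libraries that stand apart the difference was -0.17 (adjusted p = 0.0366), and the part of those genes in it was not tested. The Hk1 call was lost without the mice of replicate number 1 (adjusted p = 0.126) or 2 (adjusted p = 0.0532) and with scaling by total reads (adjusted p = 0.0606).

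Gpi1 (ENSMUSG00000036427, chr7:34201330-34230336), which interconverts glucose 6-phosphate and fructose 6-phosphate, was the other gene not called under NRF. Its light-phase mice ran from 98.4 to 165.6 TPM and its dark-phase mice from 115.8 to 170.3 under NRF, and from 125.3 to 173.1 and 135.9 to 197.2 under DRF. All these ranges overlapped. The difference was 0.20 (95% interval -0.04 to 0.45) under NRF and 0.18 (-0.06 to 0.42) under DRF, and neither was called.

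The phosphofructokinases catalyse the committing step. Pfkp (ENSMUSG00000021196, chr13:6579768-6648777), the platelet type, followed feeding under both regimens. Under NRF its light-phase mice ran from 12.8 to 24.5 TPM with a median of 17.1 and its dark-phase mice from 18.2 to 36.7 with a median of 31.5. Under DRF the light-phase mice ran from 28.5 to 46.1 with a median of 40.2 and the dark-phase mice from 17.3 to 30.1 with a median of 24.1. The ranges overlapped in both regimens. Under NRF, ZT4 mice at 24.5, 24.2 and 19.7 TPM lay above the lowest dark-phase mouse. The NRF ZT16 mice at 20.7, 18.2 and 19.3 TPM lay below the highest light-phase mouse. Under DRF the overlap was slight, since ZT8 replicate 1 had 28.5 TPM and ZT16 replicate 1 had 30.1. The differences were nearly equal and opposite, 0.68 under NRF (SE 0.11, adjusted p = 6.35e-06 in limma) and -0.68 under DRF (SE 0.11, adjusted p = 8.97e-06). The groups were wide apart at ZT12, where the NRF mice had 12.7, 12.7, 12.3 and 13.8 TPM and the DRF mice 34.2, 35.0, 31.4 and 29.1.

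Pfkl (ENSMUSG00000020277, chr10:77986947-78010083), the liver type, moved with Pfkp under NRF and not under DRF. Under NRF its light-phase mice ran from 47.2 to 126.7 TPM with a median of 70.8 and its dark-phase mice from 88.1 to 210.4 with a median of 143.3. Under DRF both phases lay at that upper level, 94.2 to 169.1 in the light and 84.4 to 156.6 in the dark, with medians of 137.3 and 133.1. The difference was 0.87 under NRF (SE 0.20, adjusted p = 0.000414 in limma) and -0.09 under DRF (95% interval -0.48 to 0.30), and the regimens differed by -0.96 (adjusted p = 0.00467). Without the mice of replicate number 4 this last difference was -0.67 and not called (adjusted p = 0.138).

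Pfkfb3 (ENSMUSG00000026773, chr2:11471433-11554077) makes fructose 2,6-bisphosphate, the strongest activator of phosphofructokinase, and it ran against Hk2 and Pfkp. Under NRF it was highest in the fasting phase at ZT8, at 444.0, 360.7, 433.0 and 469.3 TPM, and lowest at ZT20, at 155.1, 132.0, 175.1 and 123.9. Under DRF it was lowest at ZT8, at 84.9, 132.1, 174.9 and 94.8 TPM, and highest at ZT0, the end of the fast, at 310.3, 433.3, 241.6 and 312.9. Every NRF mouse was above every DRF mouse at ZT8, and every DRF mouse was above every NRF mouse at ZT0. The DRF ZT12 mice were as low as those at ZT8, at 76.3 to 196.3 TPM. The ZT8 mean of 426.8 ± 46.6 TPM under NRF was 2.91 times the ZT20 mean of 146.5 ± 23.2 (SD, n = 4), and the ZT0 mean of 324.5 ± 79.7 under DRF was 2.67 times the ZT8 mean of 121.7 ± 40.9. The dark minus light difference was -0.78 under NRF (SE 0.17, adjusted p = 0.000236 in limma) and 0.31 under DRF (SE 0.17, adjusted p = 0.175), and the regimens differed by 1.09 (adjusted p = 0.000233). The DRF contrast at ZT4 and ZT8 mixed high and low values, since Pfkfb3 was still at 217.6 to 353.1 TPM at ZT4. With ZT12 counted as light and ZT0 and ZT24 as dark it was called (adjusted p = 8.70e-06).

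Aldoa, Pgk1, Eno1 and Ldha were called higher in the dark under NRF and had no called phase difference under DRF. Aldoa (ENSMUSG00000030695, chr7:126795234-126800751), the aldolase that splits fructose 1,6-bisphosphate, ran from 906.0 to 2476 TPM in the NRF light-phase mice and from 1577 to 2885 in the NRF dark-phase mice, with medians of 1633 and 2608. Under DRF it ran from 1974 to 3893 in the light and from 2586 to 4119 in the dark, with medians of 3390 and 3504. The DRF medians lay above both NRF medians, and the phases overlapped in each regimen. The difference was 0.59 under NRF (adjusted p = 0.0133 in limma) and 0.16 under DRF (95% interval -0.22 to 0.54). The regimens did not pass the test of their difference for Aldoa (-0.43, 95% interval -0.97 to 0.10, adjusted p = 0.224).

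Pgk1 (ENSMUSG00000062070, chrX:106187100-106203699), which makes the first ATP of the payoff phase, ran from 156.3 to 299.1 TPM in the light and from 236.8 to 337.3 in the dark under NRF. Under DRF it ran from 296.1 to 385.5 and from 297.6 to 407.2, nearly the same range in both phases. The difference was 0.33 under NRF (adjusted p = 0.0122 in limma) and 0.02 under DRF (95% interval -0.19 to 0.23), and the difference between regimens was not called (-0.31, adjusted p = 0.103). Without the 2 libraries that stand apart it was called for Pgk1 (-0.36, adjusted p = 0.0436).

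Eno1 (ENSMUSG00000063524, chr4:150236721-150248879), which forms phosphoenolpyruvate, ran from 187.4 to 648.8 TPM in the light and from 355.2 to 745.8 in the dark under NRF, and from 442.2 to 711.6 and 493.1 to 691.3 under DRF. The NRF difference was 0.68 (adjusted p = 0.00809 in limma) and the DRF difference -0.06 (95% interval -0.47 to 0.35), and the regimens differed by -0.74 (adjusted p = 0.0408). Ldha (ENSMUSG00000063229, chr7:46841475-46855627), which turns pyruvate into lactate, ran from 516.5 to 1343 TPM in the light and from 1099 to 1710 in the dark under NRF, and from 1035 to 1628 and 1123 to 1463 under DRF. Its NRF difference was 0.53 (adjusted p = 0.000821) and its DRF difference -0.12 (95% interval -0.36 to 0.13), and the regimens differed by -0.65 (adjusted p = 0.00322). The difference between regimens was no longer called for Eno1 without the mice of replicate number 2 (adjusted p = 0.113) or 4 (adjusted p = 0.294), nor for Ldha without those of number 4 (adjusted p = 0.0534).

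Within the NRF light phase these genes varied widely between mice. At NRF ZT8 Aldoa stood at 1597, 906.0, 2476 and 1188 TPM, Eno1 at 398.2, 187.4, 648.8 and 249.6, and Ldha at 1036, 516.5, 1179 and 885.8. NRF ZT8 replicate 2 was the lowest and replicate 3 the highest for all 3 genes. At NRF ZT20 the same genes lay close together, for Aldoa at 2885, 2601, 2649 and 2794 TPM. When the mice of 1 replicate number were left out of all 14 groups at a time, the NRF calls of Aldoa, Eno1 and Pgk1 were lost without the mice numbered 2 or 4, with adjusted p-values up to 0.124, and those of Hk2, Pfkp, Pfkl, Ldha and Pfkfb3 were kept.

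The next comparison set DRF against NRF at each time point, 4 mice against 4. It showed where in the day inverted feeding moved the genes. At ZT4, 7 of the 10 genes were called and all 7 were higher under DRF, against 34.3% of all genes called and 18.3% higher. At ZT8, 8 were called, 7 higher and Pfkfb3 lower, against 28.2% of all genes, 15.9% higher and 12.3% lower. Fewer were called at the other times. At ZT0, 1 was higher and 1 lower, against 18.2% of all genes called, 8.65% higher and 9.51% lower. At ZT12, 2 were higher and 1 lower, against 27.4%, 15.2% higher and 12.2% lower. At ZT16, 2 were higher and 1 lower, against 18.1%, 8.9% higher and 9.17% lower. At ZT20, 2 were lower, against 22.9%, 11.8% lower and 11% higher. At ZT24, 1 was higher and 2 lower, against 20.3%, 10.4% higher and 9.87% lower.

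**Figure D3:**
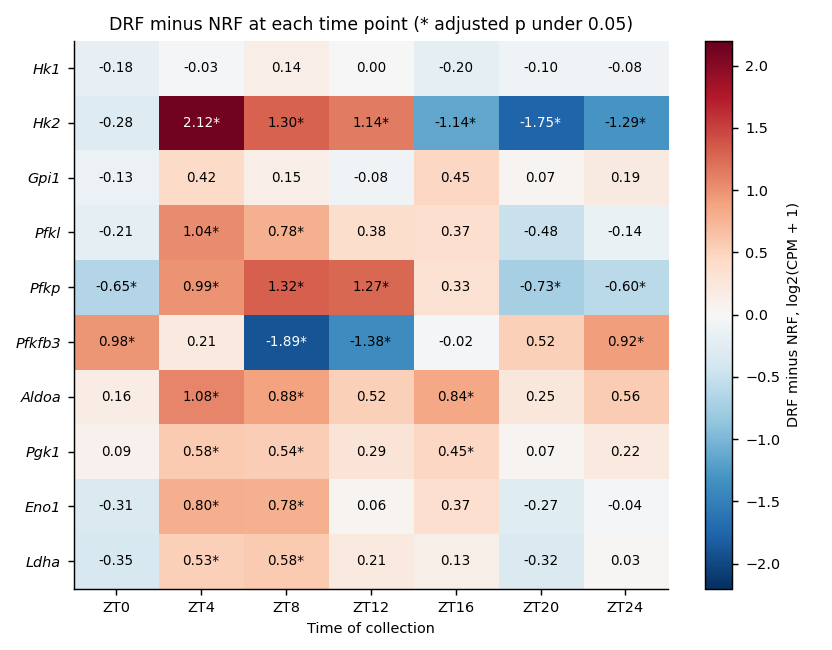
DRF minus NRF for each gene (rows) at each zeitgeber time (columns), as a log2(CPM + 1) difference printed in each cell and coloured, with an asterisk for an adjusted p under 0.05 in limma. The called rises gather at ZT4 and ZT8, and Hk2 and Pfkp turn from higher to lower between ZT12 and ZT20.

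Hk2 was 2.12 higher under DRF at ZT4 (SE 0.38, adjusted p = 3.39e-05 in limma), 1.30 at ZT8 and 1.14 at ZT12, and then -1.14 at ZT16, -1.75 at ZT20 and -1.29 at ZT24, all called. Pfkp was 0.99, 1.32 and 1.27 higher at ZT4, ZT8 and ZT12 and -0.73, -0.60 and -0.65 at ZT20, ZT24 and ZT0. Pfkfb3 was -1.89 at ZT8 (adjusted p = 1.4e-07) and -1.38 at ZT12, and 0.98 and 0.92 higher at ZT0 and ZT24. With the mice of 1 replicate number left out at a time, the calls of Hk2 at ZT4 and ZT20, of Pfkp at ZT4, ZT8, ZT12 and ZT20 and of Pfkfb3 at ZT8 and ZT12 were kept. The others were lost in at least 1 such fit, with adjusted p-values up to 0.185 for Hk2 (ZT16), 0.0659 for Pfkp (ZT0) and 0.0919 for Pfkfb3 (ZT0).

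Aldoa, Pgk1, Pfkl, Eno1 and Ldha had called differences in 1 direction only. Aldoa was higher under DRF by 1.08 at ZT4, 0.88 at ZT8 and 0.84 at ZT16, and Pgk1 by 0.58, 0.54 and 0.45 at the same times. Pfkl was higher by 1.04 at ZT4 and 0.78 at ZT8, Eno1 by 0.80 and 0.78, and Ldha by 0.53 and 0.58. At ZT16 the NRF mice had 1703, 2615, 1577 and 2344 TPM of Aldoa and the DRF mice 3636, 3531, 3476 and 3772, without overlap. Hk1 and Gpi1 were called at no time point. The largest Gpi1 difference was 0.45 at ZT16 (adjusted p = 0.0644), followed by 0.42 at ZT4 (adjusted p = 0.0584). Without the 2 libraries that stand apart Gpi1 was called at both times, with adjusted p-values of 0.0394 and 0.0382. The number of called genes was then 8 at ZT4, against 40.9% of all genes, and 4 at ZT16, against 24.8%. At ZT8, the time of 1 of these libraries, the same number of 8 was called without them, against 33.1%. The differences there were 1.57 for Pfkp, 1.46 for Hk2, 1.14 for Aldoa, 1.02 for Eno1, 1.01 for Pfkl, 0.80 for Ldha, 0.66 for Pgk1 and -1.63 for Pfkfb3, and Gpi1 moved from 0.15 to 0.33 (adjusted p = 0.152). Leaving out the mice of 1 replicate number took the number of called genes to 3 to 8 at ZT4 (4 without number 3, against 20% of all genes, and 3 without number 4, against 19.8%) and 2 to 8 at ZT8 (3 without number 2, against 19%, and 2 without number 4, against 16.8%). At ZT16 it left 0 or 1, against 10.4% to 11.8%. Scaling by total reads left 5 at ZT4, against 38.7% of all genes, without Eno1 (adjusted p = 0.0607) and Ldha (adjusted p = 0.0504).

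ZT0 and ZT24 are the same clock time in different mice, and the comparison between them measures how far groups of mice differ on their own. None of the 10 genes was called in either regimen by limma, where 0.311% of all genes were called under NRF, 0.0191% higher and 0.292% lower at ZT24, and 0.114% under DRF, all of them lower. Of the 20 tests in limma, Hk2 under NRF alone passed 0.05 before adjustment, with a difference of 0.78 (95% interval 0.04 to 1.53) and an adjusted p = 0.493.

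Rhythms were tested next, with JTK_CYCLE and Lomb-Scargle combined as in MetaCycle and a 24-h period. Under NRF 6 of the 10 genes were rhythmic (Hk2, Pfkp, Pfkl, Pfkfb3, Pgk1 and Ldha), against 38.3% of all genes. Under DRF 3 were rhythmic (Hk2, Pfkp and Pfkfb3), against 20%. The same 3 were dual-oscillating, that is rhythmic under both regimens, against 12.7% of all genes. A test of the regimen-by-rhythm interaction in limma was called for 6 genes (Hk2, Pfkp, Pfkfb3, Pfkl, Ldha and Eno1), against 54.0% of all genes. Without the 2 libraries that stand apart Pgk1 was called as well (adjusted p = 0.0261 in place of 0.0833), against 60.4%. Leaving out the mice of 1 replicate number, which leaves 3 per group, brought the number of rhythmic genes to 3 to 5 under NRF, against 22.4% to 30.5% of all genes, and 0 or 1 under DRF, against 8.06% to 12.6%. A limma F test of the 24-h cosine gave 8 under NRF, against 52.5% of all genes, and 4 under DRF, against 42.7%. Leaving out the ZT24 libraries gave 6 under NRF and 1 under DRF, and the shares of all genes in that fit are not given here.

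Each of the 3 genes rhythmic under both regimens moved its peak by 10.4 to 11.0 h with inverted feeding. In the CircaCompare model the fitted peak of Hk2 moved from ZT18.8 (SE 0.45 h) under NRF to ZT8.31 (SE 0.86 h) under DRF, a shift of 10.5 h (95% interval 8.64 to 12.4, adjusted p = 1.35e-13). Pfkp moved from ZT21.7 to ZT8.69, a shift of 11.0 h (9.60 to 12.4, adjusted p = 5.67e-19). Pfkfb3 moved from ZT9.37 to ZT23.0, a shift of 10.4 h (8.67 to 12.1, adjusted p = 5.17e-15). The phase of Hk2 and Pfkp thus lay in the feeding phase and that of Pfkfb3 in the fasting phase under each regimen. Shifts are given the shorter way round the 24-h day. Their intervals were laid on a straight scale, so upper limits of 12.1 and 12.4 h stand for shifts past a full inversion. The test of a phase shift was called for 4 genes, against 57.2% of all genes. The fourth was Ldha, whose DRF rhythm did not pass the test, so its phase under DRF is not read. Without the 2 libraries that stand apart it was called for 6, against 62.1%, with Pfkl (adjusted p = 0.000259 in place of 0.0675) and Eno1 (adjusted p = 0.0119 in place of 0.323) added. The DRF rhythms of these 2 genes did not pass the test in that fit either.

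**Figure D4:**
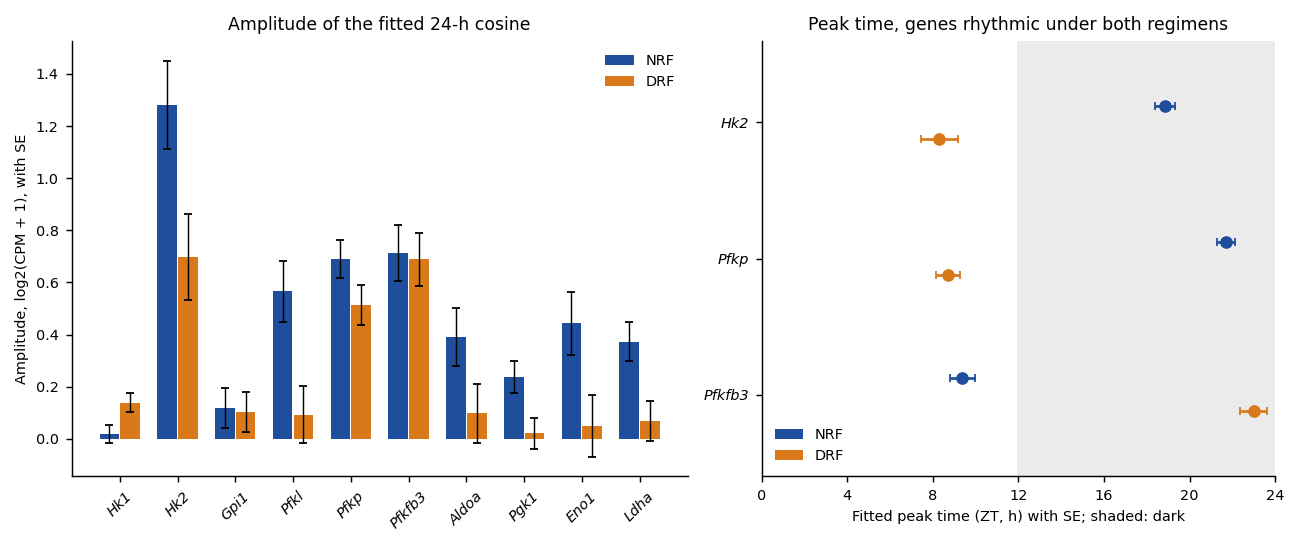
Left, amplitude of the fitted 24-h cosine (log2(CPM + 1), bars from 0 with SE) for each gene under NRF (blue) and DRF (orange). Right, fitted peak time (ZT, h, with SE) of the 3 genes rhythmic under both regimens. Peaks of Hk2 and Pfkp lie in the dark under NRF and in the light under DRF, and Pfkfb3 lies the other way round.

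Amplitudes were lower under DRF in 9 of the 10 genes, against 57.9% of all genes, and the test of the amplitude difference was called for none of them in the CircaCompare fit, against 3.23% of all genes, 2.44% lower and 0.788% higher. At an unadjusted p under 0.05 there were 5 lower (Hk2, Pfkl, Ldha, Eno1 and Pgk1) and 1 higher (Hk1), against 11.6% of all genes lower and 4.86% higher. The amplitude of Hk2 was 1.28 (SE 0.17) under NRF and 0.70 (SE 0.16) under DRF, a difference of -0.58 (95% interval -1.05 to -0.12, adjusted p = 0.178). That of Pfkfb3 was 0.71 and 0.69, a difference of -0.02 (-0.32 to 0.27). For Pfkl it was 0.57 and 0.09, for Ldha 0.37 and 0.07, for Eno1 0.44 and 0.05 and for Pgk1 0.24 and 0.02. For Hk1 it was 0.02 under NRF and 0.14 under DRF.

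A related question is whether feeding against fasting gives a difference of the same size in both regimens. DRF light minus dark was set against NRF dark minus light, and 3 of the 10 genes were called, all with a smaller effect under DRF, against 21.1% of all genes called and 10.4% in this direction. These were Hk2 (-1.17, adjusted p = 0.0221 in limma), Pfkl (-0.78, adjusted p = 0.0380) and Aldoa (-0.75, adjusted p = 0.0422). Pfkp had 0.00 (95% interval -0.31 to 0.32). Without the 2 libraries that stand apart, Pfkl and Aldoa were no longer called (adjusted p = 0.0687 and 0.0661), Hk2 was (adjusted p = 0.0342), and Pfkfb3 was called with 0.61 (adjusted p = 0.0452), which made 2 genes against 24.7% of all genes. The Hk2 call was lost without the mice of replicate number 2 (-1.06, adjusted p = 0.163) or 4 (-1.24, adjusted p = 0.0836), and neither Pfkl nor Aldoa was called in these 2 fits. Without number 2 the count was thus 0, against 8.5% of all genes. It was 0 without number 4 as well, against 14.2%, 1 without number 1, against 17%, and 4 without number 3, against 16.8%. With no filter on low genes it was 1, and the share of all genes there is not given here. With the times of the light changes added, none of the 10 was called, and the share of all genes in that fit is not given here.

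Averaged over the 7 time points, Aldoa, Pgk1 and Pfkp were higher under DRF. They were 3 of the 10 genes, all called higher, against 37.4% of all genes called and 19.3% higher. Aldoa was 0.61 higher (SE 0.10, adjusted p = 9.61e-06 in limma), a 1.53-fold level, with 2162 ± 616 TPM under NRF and 3178 ± 565 under DRF (SD, n = 28). Pgk1 was 0.32 higher (SE 0.06, adjusted p = 2.12e-05), with 281.2 ± 46.2 and 344.5 ± 34.4 TPM. Pfkp was 0.28 higher (SE 0.06, adjusted p = 0.000404), with 23.6 ± 8.39 and 27.97 ± 9.10 TPM. Hk2, with its inverted rhythm, had no difference in mean level (0.01, 95% interval -0.27 to 0.29).

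Both libraries of the pair that stands apart were DRF libraries, and leaving them out moved this count. In DRF ZT0 replicate 4 Aldoa was at 2020 TPM against 2734 to 3522 in the other mice, Eno1 at 374.8 against 470.5 to 564.5 and Ldha at 1079 against 1233 to 1373. Without these 2 libraries 8 genes were called, 7 higher and Hk1 lower, against 46.3% of all genes. The 5 added genes had small differences: Pfkl 0.29, Eno1 0.25, Gpi1 0.18, Ldha 0.16 and Hk1 -0.08, and the highest adjusted p was 0.0492. Markers of other cells also moved with the regimen. All 3 red cell markers were called higher under DRF, their sums ranging from 868.1 to 2752 TPM under DRF and from 575.0 to 2421 under NRF, and 3 of 4 macrophage markers were called lower (158.4 to 288.1 TPM against 179.2 to 357.0). Upk3b (-0.29) and Wt1 (-0.28) were called lower among 4 mesothelium markers, whose sums ranged from 196.0 to 743.2 TPM under DRF and from 226.7 to 579.3 under NRF. Adipoq (-0.26) and Lep (0.47) of 5 adipocyte markers were also called. So were S100a8 (0.54) of 3 tested neutrophil markers and Star (-0.31) of 2 tested ovary markers. None of the 5 skeletal muscle markers was called, and their sums ranged from 11.8 to 756.6 TPM under DRF and from 20.5 to 980.6 under NRF. None of the 3 liver markers was called either, with sums of 28.8 to 96.8 TPM under DRF and 19.5 to 2077 under NRF. The NRF library at 2077 TPM was not left out alone. The part of these cells in the mean levels was not tested.

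Aldoa also took a larger share of the transcripts of the 10 genes under DRF. It was 43.4% ± 3.24 of their summed TPM under NRF (SD, n = 28, 36.6% to 48.3%) and 51.9% ± 3.07 under DRF (44.7% to 56.9%). At ZT16 the share was 42.7% ± 3.35 and 54.5% ± 0.787 (SD, n = 4), without overlap between the mice. At ZT8, where DRF ZT8 replicate 1 belongs, it was 40.2% ± 3.79 and 49.0% ± 3.53. The share of Pfkp among the phosphofructokinases ran from 8.83% ± 1.61 at ZT12 to 16.2% ± 2.01 at ZT24 under NRF and from 11.7% ± 1.98 at ZT0 to 19.96% ± 2.49 at ZT8 under DRF. At ZT8 the share was 12.3% ± 2.49 under NRF and 19.96% ± 2.49 under DRF, and at ZT12 it was 8.83% ± 1.61 and 16.4% ± 2.70. The mice of the 2 regimens did not overlap at ZT8 or at ZT12.

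The rest of the pathway gives the frame for these values. Of a list of 25 other glycolysis genes, 22 were in the table and 20 passed the filter of a mean of at least 0.5 CPM, and all 10 members passed it. Under NRF 5 of the 20 were called between dark and light, 4 higher in the dark and Hk3 lower, against 37% of all genes, and under DRF 3 were called, 2 higher in the dark and Pfkfb4 lower, against 30.1%. In mean level 14 of the 20 were called, against 37.4% of all genes, 12 of them higher under DRF (19.3% of all genes), with Hk3 (-0.30) and Eno2 (-0.32) lower, and the median was 0.20 against 0.18 for the 10 members and 0.00 over all genes. Tpi1, the triose phosphate isomerase, rose by 0.54 (adjusted p = 1.58e-09 in limma), Pgam1, a phosphoglycerate mutase, by 0.50 (adjusted p = 1.26e-07), and Pkm, the pyruvate kinase of fat, by 0.58 (adjusted p = 0.000118). Eno1, whose step lies between those of Pgam1 and Pkm, had 0.20 and was not called (adjusted p = 0.159). Gapdh ran from 1.68 to 191.9 TPM in single mice and from 6.42 to 191.9 within DRF ZT12 alone. It has many near-identical copies in the genome, and its called rise of 1.4 has a 95% interval of 0.38 to 2.43.

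**Figure D5:**
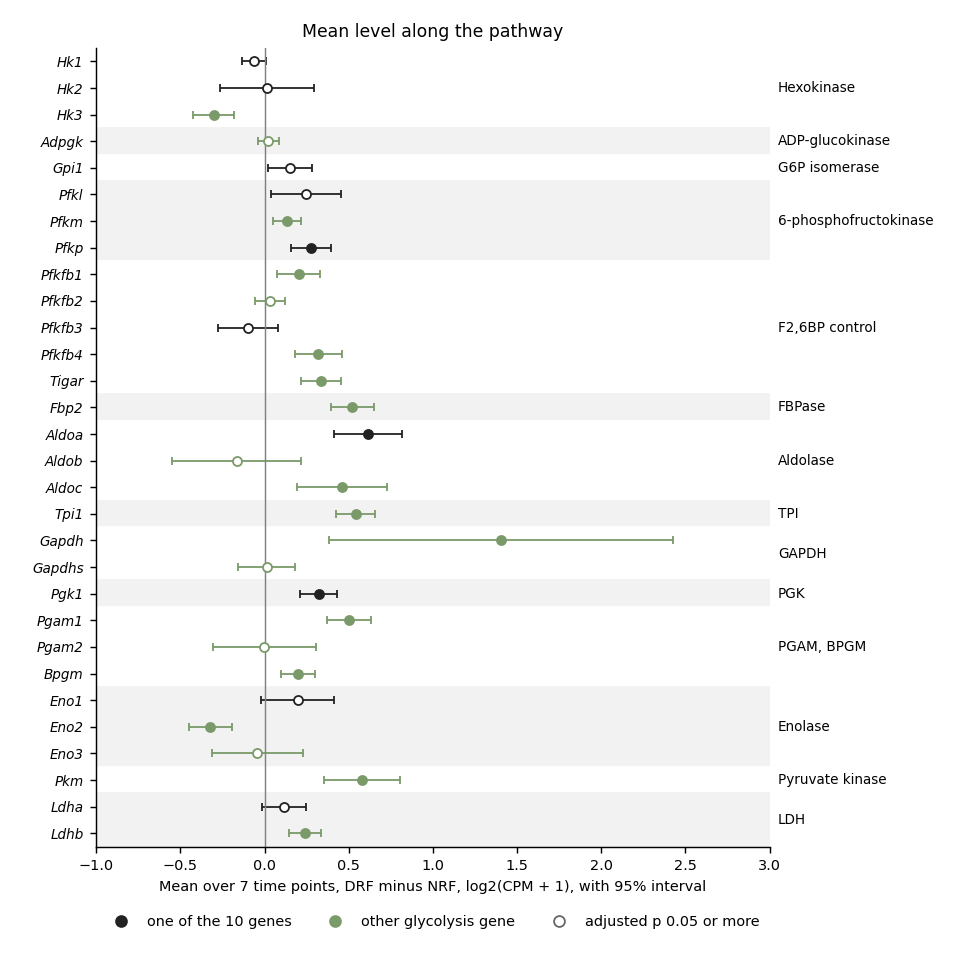
Mean level over the 7 time points, DRF minus NRF on the log2(CPM + 1) scale with 95% intervals, for the 10 genes (black) and 20 other glycolysis genes (green) ordered by pathway step, open points for an adjusted p of 0.05 or more. Aldoa, Tpi1, Pgk1, Pgam1 and Pkm lie between 0.32 and 0.61, and Gapdh has the widest interval.

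The isoforms of the phosphofructo-2-kinase differed from each other. Pfkfb4 had a pattern like that of Hk2 and opposite to that of Pfkfb3. It was 0.77 higher in the dark under NRF and -1.04 under DRF, both called, and peaked at ZT20.6 under NRF and ZT7.64 under DRF, a shift of 11.0 h (adjusted p = 6.27e-16 in the CircaCompare fit). Pfkfb1 was rhythmic under DRF and not called rhythmic under NRF, with amplitudes of 0.49 and 0.14, and it was the only gene of the 20 whose amplitude difference was called (0.35, adjusted p = 0.0456). Tigar, which lowers fructose 2,6-bisphosphate, was 0.50 higher in the dark under NRF and 0.33 higher under DRF in mean level, both called.

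Reads of some genes may be split between close copies. Eno1b, a near-identical copy of Eno1, was counted at 47.0 TPM and made up 7.64% ± 0.571 of Eno1 plus Eno1b under NRF and 7.93% ± 0.414 under DRF (SD, n = 28), nearly the same share everywhere. Eno1b was 0.67 higher in the dark under NRF (adjusted p = 0.00845 in limma), close to the 0.68 of Eno1. Pgk1-rs7, a processed copy of Pgk1, was counted at 2.25 TPM. The second Aldoa identifier, which lies just upstream of Aldoa at chr7:126800790-126809108, held 0.832 CPM against 2480 for Aldoa. At this low level it was rhythmic under DRF (adjusted p = 0.00255 in the MetaCycle-type test) and not under NRF (adjusted p = 0.697). The main Aldoa row was called rhythmic under neither regimen. A phase shift was called for the second identifier, but without an NRF rhythm it is not read. Whether the library kit marks strand was not established here.

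Over the 14 group means of log2(CPM + 1), Aldoa and Pgk1 had the most alike patterns of the 10 genes (Pearson r = 0.99), followed by Pfkl and Eno1 (0.96) and Eno1 and Ldha (0.93), while Pfkfb3 was negative with each of the other 9 (-0.07 to -0.69). Hk2 was closest to Pfkl (0.77) and Pfkp (0.72). These values describe 14 points that share their libraries and carry no test. Among the 15674 genes compared by the same measure, the ones most like Hk2 were Aste1 (0.98), Zc3h8 (0.97) and Tepsin (0.96). For Pfkp they were Eif1a (0.98), Nol10 (0.97) and Fgfr1op2 (0.97), and for Pfkfb3 Jup (0.93), Ephx2 (0.92) and Cat (0.92). For Pfkl they were Ddo (0.97), Thrsp (0.96) and Pdhb (0.96), for Aldoa Gclm (0.99), C130074G19Rik (0.98) and Aldh1a7 (0.98), and for Pgk1 Slc15a5 (0.98), Gfm1 (0.98) and Pkm (0.98). The genes most like Eno1 were Eno1b (0.98), the processed pseudogene Gm4735 (0.98) and Tkt (0.96). Those most like Ldha were Mrpl51 (0.96), the processed pseudogene Ldha-ps2 (0.96) and Pcmt1 (0.95). Gm4735 and Ldha-ps2 are copies of the genes they follow.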

How the data were processed

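RNA-seq libraries of VAT from 56 mice were grouped by the regimen and zeitgeber time in their labels. Poly(A) RNA was sequenced as paired-end reads, and the submitters' processing notes name HISAT2 2.0.5, featureCounts 1.5.0-p3 and the mm10 build. A single table, deposited by the authors, holds a value named TPM for every gene in every library. By its values the deposited score is log2(CPM + 1) divided by exon length and scaled to a near-common total, so whole reads were recovered from it: with exon lengths of GENCODE annotation on GRCm38, 25028 of 25939 genes were whole at the annotated length (within 0.02 of a whole number for values of at most 10000 reads), 881 more were whole at a length read off their own values, 29 were so abundant that no test was possible, and 1 was not resolved. Recovered reads were 31180026 to 41299376 per library, which leaves counting error small beside the spread between mice for these genes. Reads on genes that could not be recovered are not in these totals.

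TPM was recomputed from recovered reads for levels. Differences were tested on log2(CPM + 1) taken back from the deposited values, as the design had named for a table of this form. This pseudocount of 1 understates changes of low genes. limma 3.58.1 in R 4.3.3 was fitted to 14 group means with an intensity trend for 15737 genes with a mean of at least 0.5 CPM, and p-values were adjusted by Benjamini-Hochberg over all of them. Rhythms were tested on the deposited values by a MetaCycle-type test that joins JTK_CYCLE with Lomb-Scargle (Fisher's combination of p-values), and the CircaCompare model was fitted by least squares with Wald tests, both with scipy 1.17.1 and numpy 2.4.6 (tables in pandas 2.3.3, all under Python 3.11.15). The limma contrast of dark against light under NRF, the rhythm test under DRF and the fitted peak time under DRF were tried on simulated data. The other steps were not. Each replicate is a library labelled as a sample of its group and taken as a mouse, and the replicate numbers did not pair the libraries.

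The 10 genes, the other glycolysis genes, the marker lists and the tests were chosen with earlier results of these data known. Named genes were the 10 members, a list of 25 other glycolysis genes (1 further gene of the list is not reported here), near-identical copies, and, for each member, the 3 genes with a mean of at least 1 TPM whose group means were most alike. Alternatives were another scaling (total reads, median of ratios), a pseudocount of 0.1, no filter, the replicate number as a block, each replicate number left out, the 2 DRF libraries that stand apart left out, ZT24 left out, the times of the light changes included, the mesor, other rhythm tests and the deposited values. Promoter sequences are those of RefSeq for GRCm38.p6.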

Additional observations from a re-analysis of the deposited data

Results flagged for a closer look

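The dark minus light difference changed with the regimen in 6 of the 10 genes by the test of the difference itself in limma, against 38.5% of all genes, and in 3 (Hk2, Pfkp and Pfkfb3) without the mice of replicate number 4, against 30.9%. The change, DRF minus NRF on the log2(CPM + 1) scale, was -3.16 for Hk2, -1.35 for Pfkp, -0.96 for Pfkl, -0.74 for Eno1, -0.65 for Ldha and 1.09 for Pfkfb3. Hk2 and Pfkp had called differences of opposite sign in the 2 regimens (that of Hk2 under DRF was lost without number 4, adjusted p = 0.0690), while Pfkl, Eno1 and Ldha had a called difference under NRF alone. Without number 4 the adjusted p was 0.138 for Pfkl, 0.294 for Eno1 and 0.0534 for Ldha, and without number 2 it was 0.113 for Eno1.

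Within groups of 4 mice, a single mouse lay far from the others for 3 of 140 combinations of gene and group, where chance flags about 1 in 20, or 7 of 140. Hk1 was at 12.8 TPM in DRF ZT16 replicate 2, against 10.2 to 10.6 in the other mice. In NRF ZT20 replicate 3, Pfkl was at 210.4 TPM against 146.7 to 151.0, and Pgk1 at 300.4 TPM against 333.0 to 337.3, so that the same mouse was highest for 1 gene and lowest for the other.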

How the results depend on the processing

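Of 190 alternative values for the 18 counts of called genes, 161 stayed within 1.5 times the count, 27 fell and 2 rose. Of 986 for the 91 results on single genes, 874 kept direction and side of the threshold, 75 lost and 15 gained a call, and 22 changed sign. Phase shifts of Hk2, Pfkp and Pfkfb3 were called under 12 of 12 alternatives, and the mean-level calls of Aldoa, Pgk1 and Pfkp under 11 of 11. The phase test was applied in each fit whether or not the DRF rhythm passed there. With the mice of 1 replicate number left out, 0 or 1 gene was rhythmic under DRF, against 8.06% to 12.6% of all genes. A shift in a fit without a called DRF rhythm is not read as a phase. Without the ZT24 libraries 1 gene was rhythmic under DRF in place of 3, and the share of all genes in that fit is not given here. The feeding-minus-fasting count of 3 fell to 1 with no filter and to 0 with ZT12 counted as light and ZT0 and ZT24 as dark. The shares of all genes in those fits are not given here. The mean-level count of 3, against 37.4% of all genes, rose to 8 without the 2 DRF libraries that stand apart, against 46.3%, and to 5 with the mesor, against 36.2%. The cause was not tested. Scaling by total reads moved the median of all genes by up to 0.418 on the log2 scale in a single library, and by -0.047 between DRF and NRF.

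With the mice of 1 replicate number left out, the counts moved, and so did the shares of all genes called. Rhythms ranged from 3 to 5 under NRF (22.4% to 30.5% of all genes) and from 0 to 1 under DRF (8.06% to 12.6%). Dark minus light under NRF ranged from 5 to 8 (24.3% to 35.8%), and its difference between regimens from 3 to 6 (30.2% to 36.6%). Feeding minus fasting ranged from 0 to 4 (8.5% to 17%). At single times the counts were 1 to 2 at ZT0 (7.64% to 20.7%) and 3 to 8 at ZT4 (19.8% to 35.9%). They were 2 to 8 at ZT8 (16.8% to 25.5%) and 0 to 1 at ZT16 (10.4% to 11.8%). At ZT24 the range was 0 to 3 (8.26% to 19.9%). Without number 2, 5 genes were called for dark minus light under NRF, against 24.3% of all genes, and 0 for feeding minus fasting, against 8.5%. Without number 1 these counts were 8, against 35.8%, and 1, against 17%. That fit also called 2 genes at ZT0, against 20.7%, and 3 at ZT24, against 19.9%. Fewer mice were fitted in each case, 3 per group.

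The sign changed only where the difference was not called. For dark minus light these were Hk1 under NRF (0.00171 with the light changes included, -0.0884 to 0.0422 with mice left out), Pgk1 under DRF (-0.0355 without the 2 libraries, -0.00204 with the light changes, -0.0486 to 0.10 with mice left out), Eno1 (-0.13 to 0.0249) and Pfkl (-0.20 to 0.0625) under DRF, and the difference between regimens for Gpi1 (0.0583 scaled by total reads, -0.0835 to 0.10 with mice left out). For feeding minus fasting it was Pfkp (-0.0077 by median of ratios, -0.11 with the light changes, -0.12 to 0.10 with mice left out). For mean level these were Hk2 (-0.035 by total reads, -0.0273 to 0.0673) and Pfkfb3 (-0.19 to 0.0339), and for amplitude Gpi1 (0.0366 by total reads, -0.0499 to 0.0652) and Pfkfb3 (0.041 without ZT24, -0.14 to 0.0576).

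Libraries with the same replicate number did not deviate together (mean correlation 0.040 against -0.012 for other numbers, lowest -0.641, and 16 of 56 closest to their own number). With the replicate block, 8 genes were called for dark minus light under NRF (against 38.4% of all genes), 3 under DRF (31.7%), 6 for the difference (39.8%), 4 for feeding minus fasting (22.7%), 3 for mean level (39%), 8 at ZT4 (36%) and 8 at ZT8 (29.7%).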
